A study of Homo sapiens with 18 samples.

Results

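MT1X, FTL, SRXN1, TXNRD1 and BACH1 are 5 genes of metal binding, iron storage and the oxidative stress response, taken by name out of the 14232 genes that the array table covers with a row of their own. Each gene was read from the brightest of the rows whose annotation names that gene alone, and each had 1 such row among the 22011 rows (transcript clusters) of the table. RNA of U251-MG, an established cell line from a human astrocytoma, was measured on 18 exon arrays in 6 groups of 3 biological replicates. Cells received 500 µM arsenite ("stressed") or the vehicle DMSO ("unstressed"), and RNA was taken after 30 min in every group. In each condition it was either whole-lysate RNA (input) or RNA immunoprecipitated (RIP) with an antibody to TIAR, which some labels call Tial, or to G3BP1. Both proteins bind RNA and gather in stress granules, the cytoplasmic bodies in which untranslated mRNA collects under arsenite. All groups share 1 cell line grown in 1 medium, and no RIP with a control antibody was used here.

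Metallothioneins such as MT1X are small cysteine-rich proteins that bind zinc, copper and toxic metals, and their genes are switched on by metals through the factor MTF1. FTL encodes the light chain of ferritin, the cytosolic iron store. TXNRD1, thioredoxin reductase, keeps thioredoxin reduced, and SRXN1, sulfiredoxin, repairs over-oxidised peroxiredoxins. The genes of ferritin, TXNRD1 and SRXN1 are known targets of the activator NRF2, which is held in check by KEAP1 and competes with BACH1, a haem-regulated repressor, for the same DNA element.

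In whole-cell RNA, arsenite raised MT1X and FTL and lowered SRXN1, TXNRD1 and BACH1. In both RIPs, MT1X and FTL also rose. SRXN1 and BACH1 went different ways in the RIPs: BACH1 fell in the TIAR RIP and not in the G3BP1 RIP, and SRXN1 rose in the G3BP1 RIP. The values are log2 signals of the composition of each RNA sample, so a gain of one mRNA and a loss of the others cannot be told apart, and neither can fewer cells with an mRNA and less of it per cell.

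**Figure D1:**
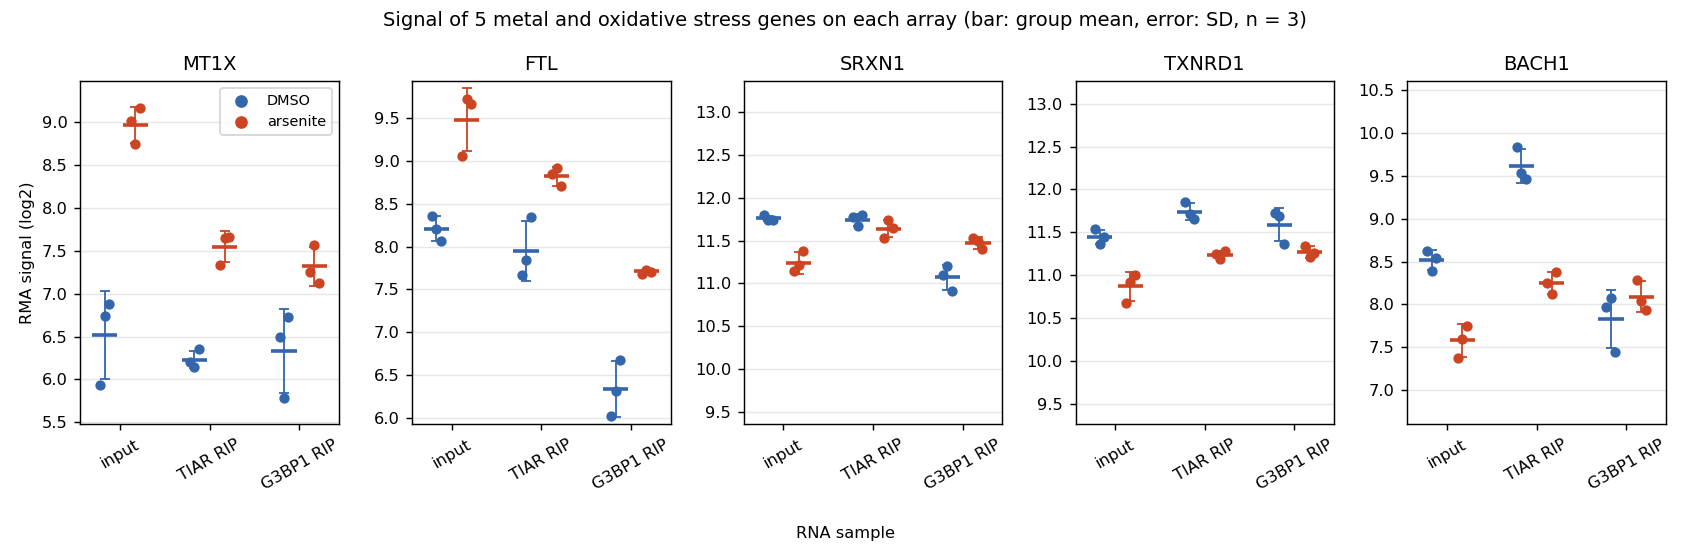
RMA signal (log2, vertical axis, 4 log2 units high in each panel) of the 5 genes on all 18 arrays, for input, TIAR RIP and G3BP1 RIP, with DMSO in blue and arsenite in red. Points are arrays, horizontal bars are group means and error bars are SD with n = 3. MT1X is highest in stressed input at 8.97, and BACH1 is highest in the unstressed TIAR RIP at 9.61.

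Array medians ran from 7.73 to 8.07. Replicate 1 of stressed input and replicate 3 of the unstressed G3BP1 RIP stood apart from their groups, each with a mean correlation of 0.980 to the other 2 arrays of its group, and values without both are given beside a result where they change its call or direction or move it by over 1.5 times. Of 9 astrocyte markers with a row, 6 had a mean above the median row, VIM, CD44 and SOX9 among them, and S100B and AQP4 were near the bottom of the scale, at percentiles 12.3 and 11.2. Above the median row were also 2 of 4 neuron markers (NEFL and SYT1), 1 of 5 myeloid markers (CD68), 2 of 4 epithelial markers (KRT8 and KRT18) and 0 of 2 erythroid markers, and EPCAM and PTPRC were at percentiles 4.2 and 5.3. The part of other cell types in the results was not tested.

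Adjusted p-values below come from limma, with Benjamini-Hochberg adjustment over all rows, and a gene was called where that p was under 0.05. A difference is given with its standard error, a group mean with the SD of its 3 arrays. Among all rows, 8.99% had all arsenite arrays above all DMSO arrays in input, 15.3% in the TIAR RIP and 18.2% in the G3BP1 RIP. For all arsenite arrays below, the shares were 25.3%, 16.1% and 8.55%, so such separation was common. In input, 2 of the 5 genes were called higher with arsenite and 3 lower, beside 2.52% of all rows higher and 11.2% lower. The TIAR RIP had 2 called higher and 2 lower, beside 6.15% and 5.71% of all rows. The G3BP1 RIP had 3 called higher, and the background was 10.4% higher and 4.08% lower. The 5 genes were named with earlier results of these data known, so these counts are descriptions and not evidence about the group.

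**Figure D2:**
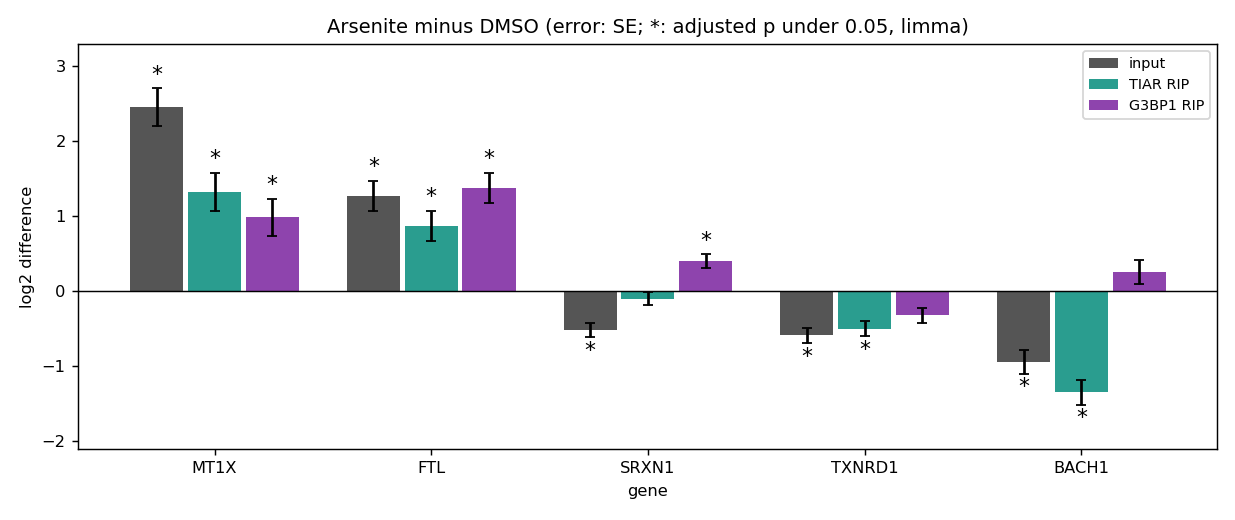
Log2 difference of arsenite minus DMSO (vertical axis) for the 5 genes in input, TIAR RIP and G3BP1 RIP, with standard errors from the limma fit and an asterisk at adjusted p under 0.05. MT1X and FTL bars stand above 0 in all 3 RNA samples, and BACH1 is at -0.94 in input, -1.35 in the TIAR RIP and 0.26 in the G3BP1 RIP.

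MT1X had the largest rise of the 5 genes. In input its signal was 5.94, 6.74 and 6.88 without stress and 9.01, 8.75 and 9.17 with arsenite. The stressed arrays all lay above the unstressed ones, with group means of 8.97 ± 0.21 and 6.52 ± 0.51. The rise was 2.45 ± 0.25 on the log2 scale, or 5.47-fold (adjusted p = 2.47e-05).

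MT1X in the TIAR RIP read 6.20, 6.15 and 6.35 without stress and 7.34, 7.65 and 7.66 with arsenite, again with no overlap. It rose by 1.32 ± 0.25 (adjusted p = 0.00228). In the G3BP1 RIP it read 6.50, 5.78 and 6.73 without stress and 7.25, 7.57 and 7.13 with it, and rose by 0.98 ± 0.25 (adjusted p = 0.0139). That last call was lost in a fit of the compared groups alone (adjusted p = 0.0922), without replicate 2 of the stressed G3BP1 RIP (0.86, adjusted p = 0.0699) and without replicate 2 of the unstressed one (0.71, adjusted p = 0.0612).

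The MT1X mRNA was thus up in every RNA sample, but by less in the RIPs than in input. The change in the G3BP1 RIP differed from that of input by -1.47 ± 0.35 (adjusted p = 0.00924), and that of the TIAR RIP by -1.14 ± 0.35, which was not called (adjusted p = 0.164). The RIPs were not called different from each other in this change. TIAR minus G3BP1 was 0.33 ± 0.35 (adjusted p = 0.682), or 0.14 ± 0.36 without both arrays that stand apart. Without stress, the RIPs and input overlapped for MT1X (TIAR RIP minus input -0.29 ± 0.25, adjusted p = 0.403, and G3BP1 RIP minus input -0.19 ± 0.25, adjusted p = 0.607, or -0.38 ± 0.27 without both arrays that stand apart). The mean of MT1X over all arrays was at percentile 37.2 of all rows, and whether low signal narrowed the unstressed differences was not tested. With arsenite, MT1X stood below input in both RIPs, at -1.43 ± 0.25 for TIAR (adjusted p = 0.000229) and -1.66 ± 0.25 for G3BP1 (adjusted p = 5.97e-05). From high to low the groups were stressed input, stressed TIAR RIP, stressed G3BP1 RIP, unstressed input, unstressed G3BP1 RIP and unstressed TIAR RIP. Arrays of stressed TIAR and stressed G3BP1 RIP overlapped, and so did those of each pair of neighbours among the unstressed groups.

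Metallothionein genes are close copies of each other, so signal can be shared among them. Of 11 metallothioneins listed, 5 had a row of their own, and MT1X was the 1 called in each arsenite comparison (list medians 0.125 in input, 0.22 in the TIAR RIP and 0.24 in the G3BP1 RIP, beside -0.03, -0.0035 and 0.01 over all rows). Of all rows, 2.52%, 6.15% and 10.4% were called higher in these comparisons. In input 2 of the 5 were called under median centring or quantile normalization or with the replicate block. Of all rows, these fits called 5.7%, 6.5% and 2.14% higher in input and 10.9%, 9.99% and 9.84% lower. The list median in input was -0.04 without both arrays that stand apart. As for the others, in input MT1G was at 0.51 ± 0.17 (adjusted p = 0.0522), MT1B at -0.10 ± 0.32, the brain metallothionein MT3 at -0.02 ± 0.11 and MT4 at 0.12 ± 0.16. Without both arrays that stand apart MT1B, MT3 and MT4 were at -0.26, -0.13 and -0.04, none of them called. MT1B was dim in every group (means from 3.81 to 4.65), and so was MT1G in the RIPs (4.53 to 5.07). Changes of these genes could be missed at such levels. A further 6 rows are annotated to several metallothionein genes each and can be given to none of them. Their arsenite differences in input ran from -0.17 to 0.29. Among them limma called none in input or the TIAR RIP and 1 higher in the G3BP1 RIP, where 10.4% of all rows were called higher. Of the 6 rows, the row whose annotation also lists MT1X was at -0.15 ± 0.29 in input (adjusted p = 0.797).

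The sequence before the start of MT1X is shown because MT1X rose most, beside that of TXNRD1, an NRF2 target that fell. Sequences are RefSeq's on GRCh38.p14, 250 bases up to the transcription start, 5′ to 3′ on the gene's strand, and all 5 genes matched the promoter table. Capitals mark cores of the metal response element, TGCACNC or TGCGCNC on either strand, and of the antioxidant response element, TGACNNNGC on either strand. The MT1X stretch is chr16:56682220-56682469 (plus strand), and the TXNRD1 stretch is chr12:104215529-104215778 (plus strand).
MT1X: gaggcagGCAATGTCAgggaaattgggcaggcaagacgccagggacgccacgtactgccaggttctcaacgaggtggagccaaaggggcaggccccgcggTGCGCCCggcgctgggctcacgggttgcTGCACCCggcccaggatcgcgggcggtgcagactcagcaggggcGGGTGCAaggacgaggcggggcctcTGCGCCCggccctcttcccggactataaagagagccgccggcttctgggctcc
TXNRD1: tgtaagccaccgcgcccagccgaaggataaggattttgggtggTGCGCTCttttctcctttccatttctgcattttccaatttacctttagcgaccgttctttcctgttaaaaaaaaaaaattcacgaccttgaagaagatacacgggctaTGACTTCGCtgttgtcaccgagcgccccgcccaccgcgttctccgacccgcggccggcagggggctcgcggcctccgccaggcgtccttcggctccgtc
MT1X held 4 metal response element cores, at 150, 122, 78 and 53 bases before the start (first base of each), and 1 antioxidant response element core at 243. TXNRD1 held 1 metal core at 207 and 1 antioxidant core, TGACTTCGC, at 99, and the table's second TXNRD1 start held 1 antioxidant core and no metal core. Neither core was found in this window of FTL or SRXN1, and 1 of 3 starts listed for BACH1 had 1 metal core. Of 35116 promoters in the table, 24.8% held at least 1 metal core, 0.37% held at least 4, and 10.9% held an antioxidant core. No cores overlapped in the sequences shown. Such matches are short strings of letters and not measured sites, and the arrays do not tell which start was used.

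FTL was the other gene that rose in all 3 RNA samples. In input it read 8.36, 8.20 and 8.06 without stress and 9.06, 9.72 and 9.66 with arsenite, a rise of 1.27 ± 0.20, or 2.41-fold (adjusted p = 0.000706). Under TIAR it read 7.67, 7.84 and 8.34 without stress and 8.85, 8.91 and 8.70 with it, and rose by 0.87 ± 0.20 (adjusted p = 0.0085). Under G3BP1 it went from 6.02, 6.31 and 6.68 to 7.68, 7.73 and 7.70, and rose by 1.37 ± 0.20 (adjusted p = 0.000299). Stressed and unstressed arrays did not overlap in any of the 3 RNA samples. Of all rows, 8.99%, 15.3% and 18.2% lay above in this way in input, TIAR RIP and G3BP1 RIP.

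The ferritin light chain mRNA was scarce in the G3BP1 RIP. FTL was lower there than in input by -1.87 ± 0.20 without stress (adjusted p = 2.2e-06) and by -1.78 ± 0.20 with arsenite (adjusted p = 3.46e-06). It was at -0.26 ± 0.20 in the TIAR RIP against input without stress (adjusted p = 0.338) and lower by -0.66 ± 0.20 with arsenite (adjusted p = 0.0132). That call of FTL in the stressed TIAR RIP was lost without replicate 3 of the RIP (-0.60, adjusted p = 0.0509), and without replicate 2 (-0.54, adjusted p = 0.061) or replicate 3 (-0.57, adjusted p = 0.0536) of stressed input.

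FTL was called higher in the TIAR RIP than in the G3BP1 RIP in both conditions, as SRXN1 and BACH1 were too after other scalings, by 1.61 ± 0.20 without stress (adjusted p = 4.93e-06) and 1.11 ± 0.20 with arsenite (adjusted p = 0.000225). Its stress change in the RIPs was not called different from that of input, with differences of -0.40 ± 0.28 for TIAR (adjusted p = 0.589) and 0.10 ± 0.28 for G3BP1 (adjusted p = 0.862), or -0.61 ± 0.21 and 0.05 ± 0.23 without both arrays that stand apart. The TIAR change minus the G3BP1 change was -0.50 ± 0.28 (adjusted p = 0.321), and -0.67 ± 0.21 without both arrays that stand apart (adjusted p = 0.0382). In order of level, stressed input came first and stressed TIAR RIP next. Arrays of unstressed input, unstressed TIAR RIP and stressed G3BP1 RIP overlapped with their neighbours, and the unstressed G3BP1 RIP lay below all others.

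TXNRD1 fell with arsenite in input and in the TIAR RIP. In input it read 11.54, 11.37 and 11.45 without stress and 10.68, 10.92 and 11.00 with arsenite, and changed by -0.59 ± 0.10 (adjusted p = 0.00177). The TIAR RIP arrays read 11.85, 11.71 and 11.66 without stress and 11.25, 11.19 and 11.28 with it (-0.50 ± 0.10, adjusted p = 0.00496). The arrays of the conditions did not overlap in these samples, where 25.3% and 16.1% of all rows lay below likewise.

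TXNRD1 in the G3BP1 RIP read 11.72, 11.69 and 11.37 without stress and 11.34, 11.21 and 11.26 with arsenite. The difference of -0.32 ± 0.10 was just outside the threshold (adjusted p = 0.0519). It was called in 11 of 28 alternatives, with -0.43 ± 0.07 without both arrays that stand apart (adjusted p = 0.000845). It was also called without replicate 1 or 3 of stressed input (adjusted p = 0.027 and 0.0487) or replicate 3 of the unstressed G3BP1 RIP (0.00584). The stress changes of TXNRD1 in the RIPs were not called different from that of input (0.09 ± 0.15 for TIAR, adjusted p = 0.844, and 0.26 ± 0.15 for G3BP1, adjusted p = 0.264). Without both arrays that stand apart they were -0.01 ± 0.10 and 0.06 ± 0.10.

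TXNRD1 was somewhat richer in the RIPs than in input. The TIAR RIP was higher by 0.29 ± 0.10 without stress (adjusted p = 0.0384) and by 0.38 ± 0.10 with arsenite (adjusted p = 0.00836), and the stressed G3BP1 RIP by 0.40 ± 0.10 (adjusted p = 0.00526). The unstressed G3BP1 RIP was at 0.14 ± 0.10 (adjusted p = 0.335), and at 0.25 ± 0.07 without both arrays that stand apart (adjusted p = 0.0123). The unstressed TIAR call was lost without replicate 1 or 2 of the unstressed TIAR RIP (adjusted p = 0.152 and 0.0686), without replicate 2 or 3 of unstressed input (0.131 and 0.0867), and in a fit with a block for replicate number (0.0543). Between the unstressed RIPs, TIAR minus G3BP1 was 0.15 ± 0.10 for TXNRD1 (adjusted p = 0.282), and 0.33, 0.30 and 0.21, each called, when the arrays were rescaled by median centring, quantiles or cyclic loess. It was 0.04 ± 0.07 without both arrays that stand apart. The stressed G3BP1 value was 0.16 after quantile normalization (adjusted p = 0.0567). From high to low came the unstressed TIAR RIP, G3BP1 RIP and input, whose neighbours overlapped, then the stressed G3BP1 and TIAR RIPs, which overlapped, and stressed input.

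SRXN1 changed in opposite directions in input and in the G3BP1 RIP. In input it read 11.80, 11.74 and 11.74 without stress and 11.14, 11.21 and 11.38 with arsenite, a change of -0.52 ± 0.09 (adjusted p = 0.00159). Its G3BP1 RIP arrays read 11.10, 11.20 and 10.91 without stress and 11.53, 11.49 and 11.40 with it, and rose by 0.40 ± 0.09 (adjusted p = 0.00692). Neither pair of groups overlapped, as for 25.3% of all rows that lay below in input and 18.2% above in the G3BP1 RIP. The G3BP1 call was lost in a fit of those groups alone (adjusted p = 0.115).

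SRXN1 in the TIAR RIP read 11.77, 11.67 and 11.80 without stress and 11.53, 11.74 and 11.65 with arsenite, and these arrays overlapped (-0.10 ± 0.09, adjusted p = 0.636). The G3BP1 change exceeded that of input by 0.92 ± 0.13 (adjusted p = 0.000221), and the TIAR change was below the G3BP1 change by -0.51 ± 0.13 (adjusted p = 0.0153). The TIAR change minus that of input was 0.41 ± 0.13, which was not called (adjusted p = 0.166).

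Against input, SRXN1 was lower in the unstressed G3BP1 RIP by -0.69 ± 0.09 (adjusted p = 1.83e-05) and stood at 0.23 ± 0.09 in the stressed one (adjusted p = 0.0509). With TIAR it was at -0.01 ± 0.09 without stress (adjusted p = 0.929) and higher by 0.40 ± 0.09 with arsenite (adjusted p = 0.00203). The stressed G3BP1 difference of SRXN1 was called in 7 of 28 alternatives, among them those without replicate 3 of stressed input (0.30, adjusted p = 0.0206) or without replicate 2 or 3 of the unstressed G3BP1 RIP (adjusted p = 0.0428 and 0.0229). It was smaller and not called without both arrays that stand apart (0.18, adjusted p = 0.0789) and under the other scalings, down to 0.02 after quantile normalization (adjusted p = 0.852). The highest levels of SRXN1 were in unstressed input, unstressed TIAR RIP and stressed TIAR RIP, whose neighbours overlapped. Stressed G3BP1 RIP came next, and stressed input and unstressed G3BP1 RIP, which overlapped, were lowest.

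BACH1 fell in the TIAR RIP and in input and was not called in the G3BP1 RIP. The TIAR RIP arrays read 9.83, 9.53 and 9.46 without stress and 8.25, 8.12 and 8.38 with arsenite. It fell by 1.35 ± 0.16 on the log2 scale, which is 2.56-fold (adjusted p = 6.49e-05). In input it read 8.62, 8.39 and 8.54 without stress and 7.38, 7.60 and 7.75 with arsenite, and fell by 0.94 ± 0.16 (adjusted p = 0.00138). Stressed arrays lay below unstressed ones in both samples, as for 16.1% of all rows in the TIAR RIP and 25.3% in input.

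BACH1 in the G3BP1 RIP read 7.97, 8.07 and 7.44 without stress and 8.29, 8.04 and 7.93 with arsenite. These arrays overlapped, and the difference was 0.26 ± 0.16 (adjusted p = 0.363), or 0.07 ± 0.13 without both arrays that stand apart (adjusted p = 0.786). The TIAR change was below the G3BP1 change by -1.62 ± 0.23 (adjusted p = 0.000305). The G3BP1 change was above that of input by 1.20 ± 0.23 (adjusted p = 0.00209), and the TIAR change minus that of input was -0.41 ± 0.23 (adjusted p = 0.472). Without both arrays that stand apart these 3 differences were -1.42, 0.91 and -0.51, and the first and second were still called.

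Without stress, BACH1 mRNA was enriched with TIAR and depleted with G3BP1. It was higher in the TIAR RIP than in input by 1.09 ± 0.16 (adjusted p = 4.91e-05), lower in the G3BP1 RIP than in input by -0.69 ± 0.16 (adjusted p = 0.00272), and higher in the TIAR than in the G3BP1 RIP by 1.78 ± 0.16, or 3.43-fold (adjusted p = 1.72e-07). With arsenite it was above input in both RIPs, by 0.68 ± 0.16 in TIAR (adjusted p = 0.00292) and 0.51 ± 0.16 in G3BP1 (adjusted p = 0.0173), and the RIPs overlapped (0.16 ± 0.16, adjusted p = 0.461). That difference between the stressed RIPs was 0.39 under median centring (adjusted p = 0.0129), 0.45 under quantile normalization (0.00369) and 0.47 under cyclic loess (0.00625), each called. The stressed G3BP1 call against input was lost after cyclic loess (0.24, adjusted p = 0.14), without replicate 1 of stressed input (0.41, adjusted p = 0.0747) and without replicate 1 of the stressed G3BP1 RIP (0.41, adjusted p = 0.0843). In order of level, the unstressed TIAR RIP was highest and unstressed input next, neither overlapping its neighbours, and each neighbour pair among stressed TIAR RIP, stressed G3BP1 RIP, unstressed G3BP1 RIP and stressed input overlapped.

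**Figure D3:**
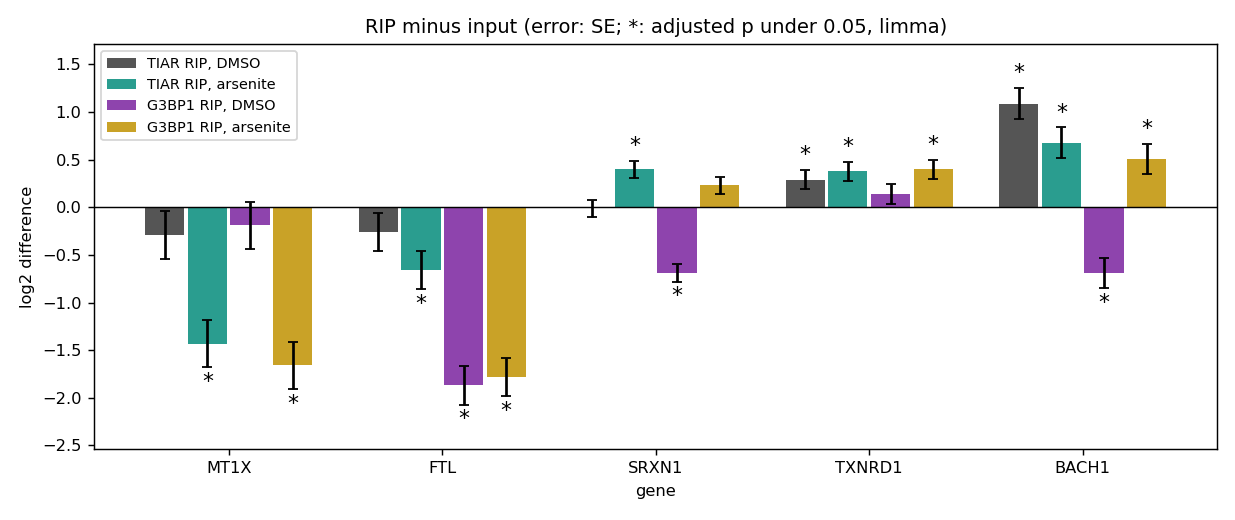
Log2 difference of RIP minus input (vertical axis) for the 5 genes, for the TIAR and G3BP1 RIPs with DMSO and with arsenite, with standard errors from the limma fit and an asterisk at adjusted p under 0.05. The BACH1 bars go from -0.69 to 0.51 in the G3BP1 RIP between DMSO and arsenite, and the MT1X bars from -0.19 to -1.66.

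Across the 5 genes, the TIAR RIP was called higher than input for 2 without stress (beside 16.8% of all rows higher and 23.8% lower), and for 3 with arsenite, with 2 lower (20.3% and 23.5%). The G3BP1 RIP was called lower than input for 3 without stress (20.7% of all rows higher and 19.2% lower), and with arsenite higher for 2 and lower for 2 (29.3% and 15.2%). These comparisons share the input arrays. The TIAR RIP was called higher than the G3BP1 RIP for 3 genes without stress (19.3% higher and 27.5% lower) and for 1 with arsenite (15.6% and 28.7%). That last count was 4 when arrays were centred on their medians and 3 under quantile or cyclic loess scaling, all of which added SRXN1 and BACH1. The share of all rows called higher grew as well, to 27.6% under median centring, 22% under quantile and 23% under cyclic loess scaling. Under median centring the median over all rows was 0.172. With arsenite, TXNRD1 was at -0.03 ± 0.10 between the RIPs and turned to 0.20 after median centring (adjusted p = 0.0295).

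The stress change in the G3BP1 RIP was called above that of input for 2 genes and below it for 1, beside 14.3% and 2.65% of all rows. For the TIAR RIP, limma called 0 of the 5 different from input, 2 had an unadjusted p under 0.05, and 0.604% of all rows were called higher and 0.05% lower. Between the RIPs, 2 were called lower in TIAR than in G3BP1 (5.05% of all rows higher and 8.55% lower). These contrasts reuse the arrays of the single stress changes.

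The other genes of these pathways were described from 7 lists of metal, iron and redox genes, which hold the 5 genes too and gave 125 genes with a row. Their counts stand beside the share of all rows called, which with arsenite was 2.52% higher and 11.2% lower in input, 6.15% and 5.71% in the TIAR RIP, and 10.4% and 4.08% in the G3BP1 RIP. Without both arrays that stand apart, the shares of all rows were 7.07% and 13.4% in input and 11.6% and 11.3% in the TIAR RIP. In the G3BP1 RIP they were then 11.1% and 13.7%, and list counts from that fit are to be read beside these shares. Medians over all rows were -0.03, -0.0035 and 0.01. MT2A, FTH1, MTF1 and NFE2L2, the NRF2 gene, had no row of their own and are not analysed here. KEAP1, the NRF2 inhibitor, fell in input (-0.68 ± 0.17, adjusted p = 0.0124) and was at 0.15 ± 0.17 in the TIAR RIP and -0.10 ± 0.17 in the G3BP1 RIP. Without both arrays that stand apart KEAP1 was lower in the G3BP1 RIP too (-0.34 ± 0.10, adjusted p = 0.0212). HMOX1, the haem oxygenase gene that BACH1 represses, was at 0.06 ± 0.11 in input (adjusted p = 0.794), -0.02 ± 0.11 with TIAR (adjusted p = 0.971) and 0.27 ± 0.11 with G3BP1 (adjusted p = 0.138). Its input arrays read 11.00, 10.88 and 10.95 without stress and 10.76, 11.07 and 11.17 with arsenite, and overlapped, and its input difference was 0.18 ± 0.09 without replicate 1 of stressed input and the other array that stands apart (adjusted p = 0.211).

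Of 10 NRF2 and BACH1 regulators, 4 fell in input (40% beside 11.2% of all rows, median -0.38), namely BACH1, KEAP1, PALB2 (-0.78 ± 0.19) and the ubiquitin ligase adaptor gene BTRC (-0.47 ± 0.14). Of the same genes 2 fell and 1 rose in the TIAR RIP (20% and 10%, beside 5.71% and 6.15% of all rows, median -0.18): BACH1 and BACH2 (-0.27 ± 0.08) fell, and the NRF2 relative NFE2L1 rose (0.60 ± 0.08, adjusted p = 0.000265). NFE2L1 was also the 1 called in the G3BP1 RIP (0.76 ± 0.08, adjusted p = 3.33e-05), which is 10% of the list beside 10.4% of all rows, and the list median was -0.005. With both arrays that stand apart left out, 6 of the 10 fell in input, and the G3BP1 RIP had 1 higher and 2 lower, with a more negative list median. Of all rows, that fit called 13.4% lower in input, and 11.1% higher and 13.7% lower in the G3BP1 RIP.

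Of 22 thioredoxin, peroxiredoxin and sulfiredoxin genes, 5 fell in input (22.7% beside 11.2% of all rows, median -0.215) and 3 in the TIAR RIP (13.6% beside 5.71%, median -0.09). Another 3 rose in the G3BP1 RIP, a share of 13.6% near the 10.4% of all rows (median 0.15). SESN3, a sestrin, fell by 1.20 ± 0.25 in input and by 1.20 ± 0.25 in the TIAR RIP, and MSRB2, a methionine sulfoxide reductase, fell by 0.95 ± 0.22 in input. The glutaredoxin GLRX5 fell in input (-0.36 ± 0.09) and the TIAR RIP (-0.39 ± 0.09) and rose in the G3BP1 RIP (0.37 ± 0.09), where the peroxiredoxin PRDX4 rose too (0.94 ± 0.27, adjusted p = 0.0306). The PRDX4 rise was 0.49 ± 0.15 without both arrays that stand apart (adjusted p = 0.0255). With both arrays that stand apart left out, the calls were 1 higher and 6 lower in input, 1 and 4 in the TIAR RIP, and 3 and 6 in the G3BP1 RIP, where the median turned to -0.11. That fit called 11.1% of all rows higher and 13.7% lower in the G3BP1 RIP. Its input median for this list was smaller in size than -0.215.

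Of 28 iron and haem genes, 2 rose in input, FTL and the transferrin receptor gene TFRC (0.61 ± 0.14, adjusted p = 0.0094). Another 3 fell, among them FECH, which inserts iron into haem (-0.61 ± 0.13), and the mitochondrial iron carrier gene SLC25A28 (-0.47 ± 0.10). A further 5 rose and 1 fell in the TIAR RIP, with ALAS1, the first enzyme of haem synthesis (0.75 ± 0.16), STEAP3, an endosomal iron reductase (0.62 ± 0.14), and UROD (0.63 ± 0.14) beside FTL. The G3BP1 RIP had 4 that rose and 4 that fell: NCOA4, the receptor for ferritin breakdown, fell (-0.85 ± 0.11, adjusted p = 0.000171), and so did ACO1, which encodes iron regulatory protein 1 (-0.76 ± 0.11), while the iron reductase gene CYBRD1 rose (0.95 ± 0.18). The shares in input (7.14% higher and 10.7% lower) stood beside 2.52% and 11.2% of all rows, those in the TIAR RIP (17.9% and 3.57%) beside 6.15% and 5.71%, and those in the G3BP1 RIP (14.3% each way) beside 10.4% and 4.08%. The list medians were -0.05, 0.05 and 0.15, and without both arrays that stand apart the TIAR RIP had 9 higher and 3 lower and input 4 higher and 3 lower. In that fit the input median turned positive and the G3BP1 RIP median was smaller.

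Of 20 zinc sensing and transport genes, 2 fell in input, SLC39A8 (-0.42 ± 0.12) and SLC30A4 (-0.55 ± 0.17), which is 10% of the list beside 11.2% of all rows, with a list median of -0.12. Another 3 rose in the TIAR RIP, SLC39A6 (0.75 ± 0.15), SLC39A14 (0.44 ± 0.11) and SLC30A7 (0.65 ± 0.20), or 15% beside 6.15% of all rows, with a median of 0.04. In the G3BP1 RIP 7 rose (35% beside 10.4% of all rows, median 0.33), led by the zinc importer genes SLC39A13 (0.86 ± 0.10), SLC39A3 (0.69 ± 0.10) and SLC39A9 (0.87 ± 0.13) and by SLC30A7 (1.17 ± 0.20), which loads zinc into the secretory pathway. All of these encode membrane transporters. Leaving out both arrays that stand apart gave 7 higher in the G3BP1 RIP with a median of 0.17, 5 higher and 1 lower in the TIAR RIP, and 1 higher and 3 lower in input. The input median was then smaller in size than -0.12.

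Of 28 glutathione, dismutase and catalase genes, 2 rose and 1 fell in input. GCLC, the catalytic subunit of the first enzyme of glutathione synthesis, fell (-1.19 ± 0.22, adjusted p = 0.00232), and SLC3A2 (0.46 ± 0.09) and the glutathione conjugate exporter gene ABCC1 (0.22 ± 0.07) rose. The TIAR RIP had 6 that rose and 1 that fell, with ABCC1 at 0.57 ± 0.07, MGST2 at 0.87 ± 0.19, SLC7A11, the cystine importer, at 0.45 ± 0.11 and GSR, glutathione reductase, at -0.55 ± 0.13. The G3BP1 RIP had 4 that rose and 1 that fell, with SOD1, the cytosolic superoxide dismutase, at -0.99 ± 0.13, GPX3 at 1.05 ± 0.16, ABCC1 at 0.41 ± 0.07 and GSTK1 at 0.76 ± 0.15. The shares of the list called higher and lower were 7.14% and 3.57% in input, 21.4% and 3.57% in the TIAR RIP, and 14.3% and 3.57% in the G3BP1 RIP, the last near the 10.4% and 4.08% of all rows. The list medians were -0.02 in input, 0.21 in the TIAR RIP and 0.16 in the G3BP1 RIP. Leaving out both arrays that stand apart turned the input median positive and made the G3BP1 RIP median smaller. Without both arrays that stand apart, the calls were 7 higher and 2 lower in input, 12 and 2 in the TIAR RIP, and 4 and 8 in the G3BP1 RIP. Calls rose over all rows too in that fit, to 7.07% higher in input and 11.6% higher in the TIAR RIP. In the G3BP1 RIP it called 11.1% of all rows higher and 13.7% lower.

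Of 12 genes of NADPH and quinone metabolism, limma called 0 in input, where 2 had an unadjusted p under 0.05 and where 4 were called higher once both arrays that stand apart were left out. In the TIAR RIP 3 rose, EPHX1, an epoxide hydrolase (0.72 ± 0.13), PGD of the pentose phosphate pathway (0.34 ± 0.09) and PIR (0.77 ± 0.24). In the G3BP1 RIP 2 rose and 2 fell, with TKT, transketolase, at -0.37 ± 0.08, EPHX1 at 0.50 ± 0.13, UGDH at -0.76 ± 0.24 and PGLS at 0.29 ± 0.09. EPHX1 was at 0.29 ± 0.07 there without both arrays that stand apart. The shares were 25% higher in the TIAR RIP beside 6.15% of all rows, and 16.7% each way in the G3BP1 RIP beside 10.4% and 4.08%. The list medians were 0.03 in input, 0.195 in the TIAR RIP and -0.21 in the G3BP1 RIP. The fit without the apart arrays had 2 higher and 6 lower in the G3BP1 RIP, 5 higher in the TIAR RIP and a larger list median in input. Of all rows, it called 11.1% higher and 13.7% lower in the G3BP1 RIP and 11.6% higher in the TIAR RIP.

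Scaling moved the balance of these counts. After quantile normalization 6.5% of all rows were called higher and 9.99% lower in input, 8.81% and 9.16% in the TIAR RIP and 11.3% and 9.1% in the G3BP1 RIP, with medians over all rows of 0.025, -0.023 and -0.041. Under quantile normalization the zinc list had 3 higher and 2 lower in input, the iron and haem list 5 and 4, the thioredoxin list 2 and 4, and the glutathione list 8 and 1, and the input medians of the zinc, iron and glutathione lists turned to 0.06, 0.07 and 0.09. The G3BP1 RIP then had 6 higher and 4 lower iron and haem genes, 4 and 3 of the thioredoxin list, 6 and 6 of the glutathione list, 1 and 4 of the NADPH list, and 2 and 1 of the NRF2 and BACH1 regulators. The TIAR RIP splits were 3 and 1 for zinc, 7 and 2 for iron and haem, 1 and 3 for thioredoxin and 10 and 2 for glutathione. The rise of zinc transporter genes in the G3BP1 RIP was 9 higher and 0 lower, and the fall of regulators in input 5 lower and 0 higher.

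**Figure D4:**
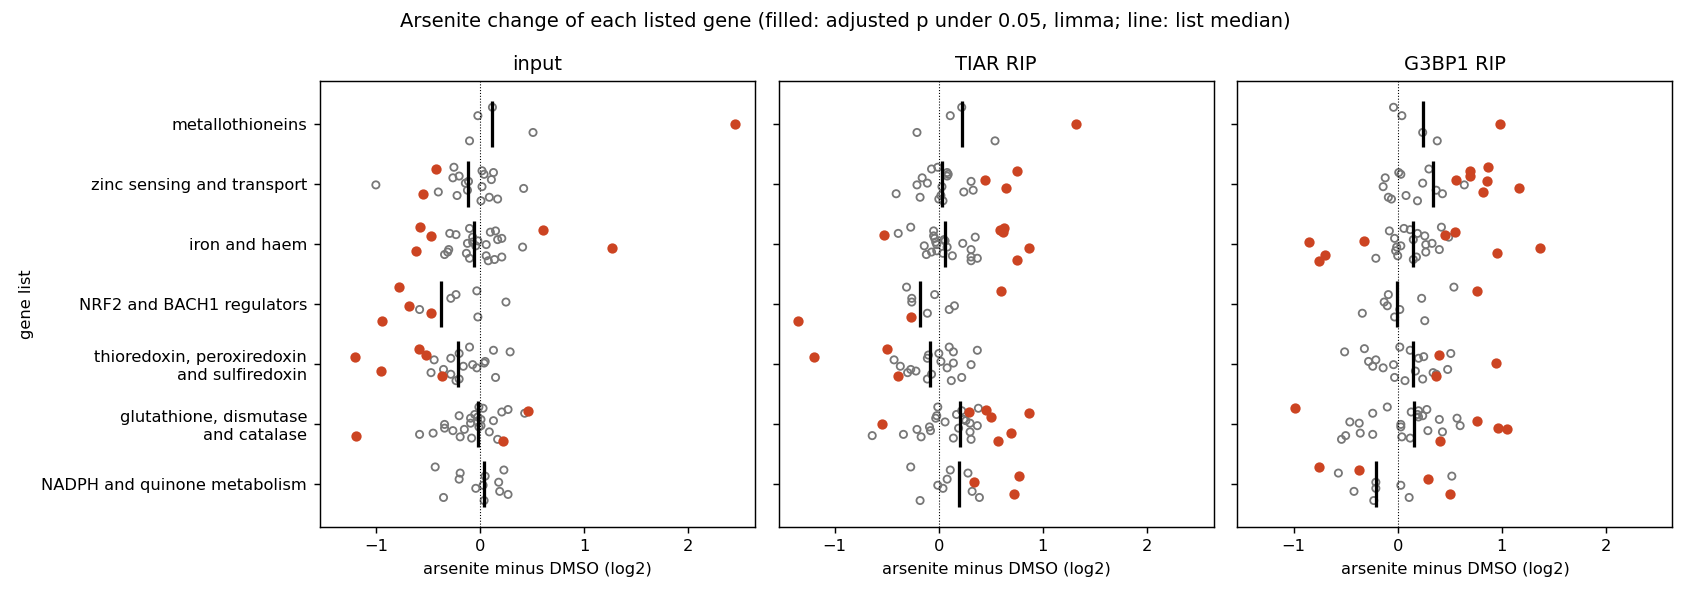
Log2 difference of arsenite minus DMSO (horizontal axis) for each gene of the 7 lists (rows) in input, TIAR RIP and G3BP1 RIP. Filled points are genes at adjusted p under 0.05 in limma, open points the rest, and vertical lines are list medians. MT1X lies at 2.45 in input, and the zinc list has a median of 0.33 in the G3BP1 RIP.

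Patterns over the 18 arrays differed among the 5 genes. As descriptions over arrays that share their groups, MT1X and TXNRD1 correlated at r = -0.92, MT1X and FTL at 0.72, BACH1 and SRXN1 at 0.75, and BACH1 and TXNRD1 at 0.73. Among genes brighter than the median row, the closest to MT1X were the AP-1 gene FOSB (r = 0.899), ATF4 (0.875) and CRISPLD1 (0.843), and the closest to FTL were MYADM (0.924), FXYD5 (0.869) and the long noncoding RNA MALAT1 (0.864). The closest to SRXN1 were the retromer gene VPS26B (0.974), FBXO27 (0.959) and the ETS factor gene ELF4 (0.950). Those closest to TXNRD1 were SBNO1 (0.982), ZNF460 (0.981) and the deacetylase gene SIRT1 (0.968). The closest to BACH1 were TMEM65 (0.971), the Hippo pathway effector YAP1 (0.971) and RAB11FIP2 (0.966).

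The likest genes show how far the resemblance goes. VPS26B, like SRXN1, was lower with arsenite in input (-0.58 ± 0.11, adjusted p = 0.00325) and higher in the G3BP1 RIP (0.55 ± 0.11, adjusted p = 0.0038), and was at -0.07 ± 0.11 in the TIAR RIP. YAP1 was lower in input (-0.66 ± 0.09) and the TIAR RIP (-0.89 ± 0.09) and at 0.01 ± 0.09 in the G3BP1 RIP (-0.07 without both arrays that stand apart). FOSB, the closest to MT1X, rose by 0.43 ± 0.10 in input (adjusted p = 0.00791) and was at 0.14 ± 0.10 and 0.06 ± 0.10 in the TIAR and G3BP1 RIPs (0.15 in the latter without both arrays that stand apart). ATF4, the next, was called higher in input (2.12 ± 0.12), the TIAR RIP (0.60 ± 0.12) and the G3BP1 RIP (1.12 ± 0.12), and CRISPLD1 in input only (0.40 ± 0.09). Of those closest to FTL, MYADM and FXYD5 were called higher in all 3 RNA samples, and MALAT1 in the G3BP1 RIP only.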

How the data were processed

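The values are log2 signals, 1 per transcript cluster, which the authors made with RMA in Affymetrix Expression Console, per the submitters' processing notes. Of the software's version, the probe sets used and any joint normalisation of the 18 arrays, nothing is stated in the labels. Values ran from 1.64 to 14.53. Signal near background cannot be told from absence, and the number of arrays limits the precision.

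Rows were named from the platform annotation: 14432 had 1 gene symbol, 2408 several and 5171 none. A model of the 6 group means (lmFit, then eBayes) used every array and every row, with 12 residual and 2.61 prior degrees of freedom, and gave 12 comparisons. It was run in limma 3.58.1 under R 4.3.3. Labels call the replicates biological but do not say how cultures were split, so p-values measure the spread between these samples. The fit was tested on simulated data. Named genes are the 5 members, KEAP1, HMOX1, up to 4 called genes per list and arsenite comparison with the smallest p, and the 3 genes per member with the highest correlation. The members and lists were chosen with earlier results of these data known.

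The main fit had no block for replicate number. In deviations from group means, 14 of 45 same-numbered pairs of arrays correlated above 0.1 (range -0.405 to 0.416). Pairs with different numbers were not computed for comparison, so whether replicate numbers pair the arrays was not settled. Alternatives changed the model (a block for replicate number, only the groups compared, a robust prior with an intensity trend, array weights), the rows (without the dimmest 25% or 50%), the scaling (median centring, quantile, cyclic loess) or the arrays (each left out, and both that stand apart).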

Additional observations from a re-analysis of the deposited data

Results flagged for a closer look

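For 3 of the 5 genes the arsenite change itself differed between RNA samples in the limma interaction contrasts, with n = 3 arrays per group. The BACH1 change in the TIAR RIP minus that in the G3BP1 RIP was -1.62 ± 0.23 (adjusted p = 0.000305), and the G3BP1 change minus that of input was 1.20 ± 0.23 (adjusted p = 0.00209). For SRXN1 the G3BP1 change minus that of input was 0.92 ± 0.13 (adjusted p = 0.000221), and the TIAR change minus the G3BP1 change was -0.51 ± 0.13 (adjusted p = 0.0153). For MT1X the G3BP1 change minus that of input was -1.47 ± 0.35 (adjusted p = 0.00924). All 5 were called in each of the alternatives run on them. The G3BP1 contrasts with input rest on both arrays that stand apart, and without these were -1.25 ± 0.38 for MT1X, 0.78 ± 0.11 for SRXN1 and 0.91 ± 0.18 for BACH1. The contrasts between the RIPs were then -0.42 ± 0.11 for SRXN1 and -1.42 ± 0.17 for BACH1.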

How the results depend on the processing

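All 5 genes stayed called in input, and 4 in the TIAR RIP, in every alternative run on them. For arsenite in the G3BP1 RIP the number of genes called went from 3 to 1 in a fit of those groups alone. For the unstressed TIAR RIP against input it went from 2 to 1 with the replicate block, to 3 with array weights, which added FTL (-0.30, adjusted p = 0.0449), and ranged from 1 to 2 with 1 array left out. For the stressed RIPs against each other it went from 1 to 4 under median centring, and to 3 under quantile normalization or cyclic loess. Of all rows, 15.6% were called higher there in the main fit, and 27.6%, 22% and 23% under these scalings. For the TIAR change beyond input the number of genes called went from 0 to 1 with array weights (SRXN1). The replicate block changed no other call of the 5 genes.

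Signs turned mainly for values near 0 that were not called. SRXN1 in the unstressed TIAR RIP against input (-0.01) was 0.16 under median centring, 0.12 under quantile normalization and 0.06 under cyclic loess, and -0.04 to 0.03 with 1 array left out. TXNRD1 between the stressed RIPs (-0.03) was 0.20, 0.11 and 0.10, and -0.06 to 0.01. The TXNRD1 change in TIAR beyond input (0.09) was -0.02, -0.15 and -0.04, -0.01 without both arrays that stand apart, and -0.01 to 0.15. The FTL change in G3BP1 beyond input (0.10) was -0.06, -0.30 and -0.03, and -0.12 to 0.27. MT1X between the unstressed RIPs (-0.10) was 0.08 after median centring, 0.09 without both arrays, and -0.38 to 0.09. MT1X in the unstressed G3BP1 RIP against input ranged from -0.48 to 0.09. The causes were not tested.

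MT1X was not among the brighter 50% of rows, so it has no value in that alternative. Each member had 1 row of its own, so the choice of row gave no alternative. MT1X and SRXN1 each had 1 further row annotated to several genes, and that of SRXN1 was not examined. With 3 arrays per group, leaving out a single array ended calls of differences from 0.29 up to 0.98 in size, as given beside MT1X, FTL, TXNRD1 and BACH1.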

Other observations

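KEAP1 and HMOX1 were spread unevenly between them. KEAP1 was lower in the TIAR RIP than in input by -1.93 ± 0.17 without stress (adjusted p = 1.98e-07) and by -1.09 ± 0.17 with arsenite (adjusted p = 6.54e-05), and higher in the G3BP1 RIP than in input by 0.68 ± 0.17 (adjusted p = 0.00375) and 1.26 ± 0.17 (adjusted p = 1.75e-05). HMOX1 was lower in the TIAR RIP by -0.83 ± 0.11 (adjusted p = 2.25e-05) and -0.90 ± 0.11 (adjusted p = 9.88e-06), and higher in the G3BP1 RIP by 0.34 ± 0.11 (adjusted p = 0.0252) and 0.55 ± 0.11 (adjusted p = 0.00092). Without stress, BACH1 was placed the other way round, above input in the TIAR RIP and below it in the G3BP1 RIP. These comparisons share the input arrays.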
